A study of Homo sapiens with 6 samples.

Results

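Transcripts of the calmodulin, calcineurin and NFAT pathway were examined in HaCaT, a human keratinocyte line that grows without limit, kept at 41C or, as the control, at 37C for 1 h daily over 3 days. The set held 9 genes, taken by symbol from the 15379 rows of the count table. They were the calmodulin genes CALM2 and CALM3, the calcineurin catalytic genes PPP3CA and PPP3CB, the transcription factor genes NFATC1, NFATC2 and NFATC3, the calcineurin target RCAN1 and the CaM kinase gene CAMK2D. All 9 had a row, and 7 passed the filter on low counts, the exceptions being NFATC1 and NFATC2. Each temperature had 3 poly(A) RNA libraries. The labels name no genetic change. They leave unsaid whether replicates came from separate cultures, so the p-values speak only to variation among these libraries, which could be technical, and they give no interval between the last heating and RNA isolation. The series title concerns heat, calcium and signalling in keratinocytes.

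Calmodulin is a small protein that binds calcium ions when they enter the cytosol and then attaches to other enzymes. One of these is calcineurin, a phosphatase made of a catalytic and a regulatory subunit, which removes phosphate from the NFATC transcription factors so that they enter the nucleus. The RCAN1 gene is switched on by this route in many cells, and its protein binds calcineurin and can inhibit it. CaM kinase II is another enzyme that calmodulin activates. In keratinocytes calcium is best known as the signal for terminal differentiation, and calcineurin and NFAT have been linked to that programme.

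Total counts ran from 20139202 to 20856144 in the libraries at 41C and from 19659112 to 19745664 at 37C. Keratinocyte markers (KRT5, KRT14, KRT6A, TP63 and CDH1) summed to 5669 to 5900 CPM at 41C and 4783 to 5358 CPM at 37C, where CPM is a count scaled to the library total with a factor that evens out library composition. Of 5 melanocyte, 5 fibroblast, 5 leukocyte and 4 endothelial markers, 2, 4, 4 and 3 had a row, and none of those was at 0 in all libraries. The marker sums were 1.71 to 2.96 CPM at 41C and 1.86 to 2.58 CPM at 37C for melanocytes, 3.15 to 3.36 CPM at 41C and 3.49 to 4.20 CPM at 37C for fibroblasts, 14.1 to 17.5 CPM at 41C and 14.6 to 18.5 CPM at 37C for leukocytes, and 18.7 to 22.7 CPM at 41C and 20.7 to 30.2 CPM at 37C for endothelial cells. Their part in the results was not tested.

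No gene of the set passed the threshold between 41C and 37C, and the outermost 95% limits of the 7 tested genes were log2 changes of -0.331, in RCAN1, and 0.313, in CAMK2D. Calmodulin transcripts were plentiful at both temperatures. By mean level per length, PPP3CA lay above 76.8% and PPP3CB above 56.1% of all symbols in the table. NFATC3 was the 1 NFATC gene with more than a few counts, and RCAN1 was at a low level with overlapping groups. By edgeR's quasi-likelihood test 0 of the 7 passed an adjusted p of 0.05, as in limma-voom. By the same edgeR test 1.09% of the 12056 genes tested passed, 0.821% higher and 0.265% lower at 41C. DESeq2 also called none of the 7, but it gave no adjusted p for PPP3CB, RCAN1 and CAMK2D, which could therefore not pass there. Without adjustment, CALM2 and PPP3CA were under a p of 0.05 (2 of 7), against 13.7% of all genes tested. The median size of the log2 change was 0.087 over the 7 genes and 0.079 over all genes tested.

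The level of each transcript per length set the genes far apart. The deposited FPKM, a count divided by gene length and library total, averaged 345 for CALM2 and 132 for CALM3 over the 6 libraries. PPP3CA followed at 17.9 FPKM, NFATC3 at 10.9, PPP3CB at 6.31, CAMK2D at 2.40 and RCAN1 at 1.83. NFATC2 and NFATC1 were at 0.010 and 0.0044 FPKM. CALM2 thus lay above 99% and CALM3 above 97.2% of all symbols in the table, and RCAN1 above 37.8%. From CALM2 to CAMK2D each gene was above the next in all 6 libraries, with ranges that did not overlap. CAMK2D was above RCAN1 in 5 of 6 libraries and their ranges overlapped, as did those of NFATC2 and NFATC1.

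**Figure D1:**
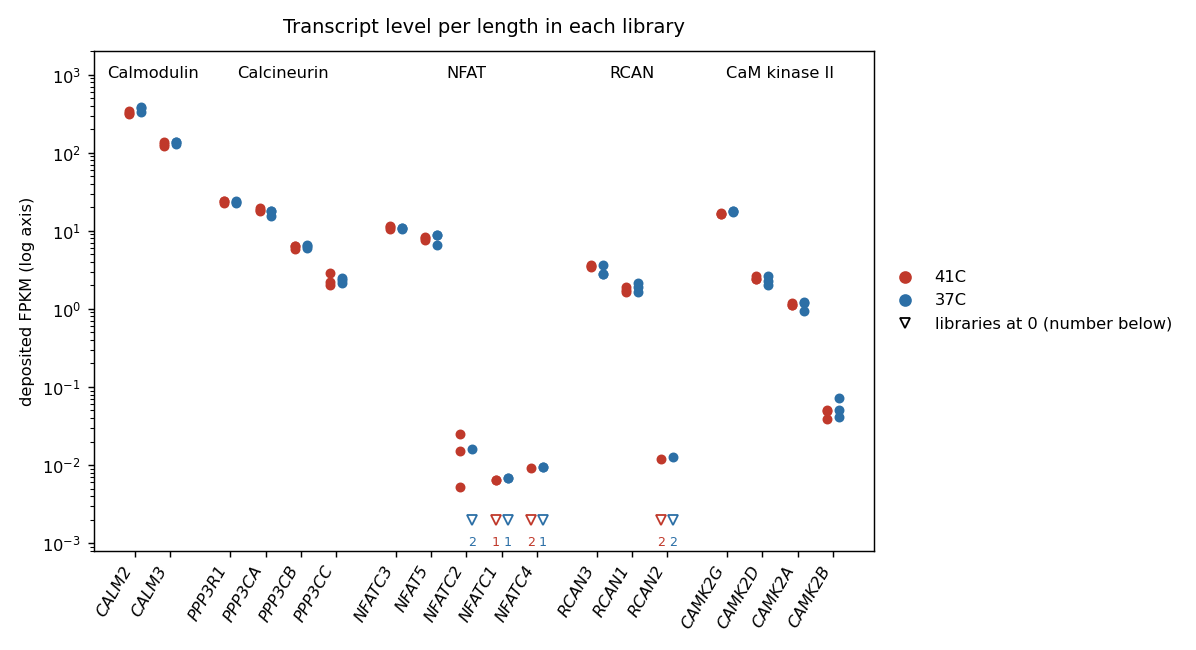
Deposited FPKM on a log axis, 1 point per library, in the 41C (red) and 37C (blue) libraries, for the genes of the set and their relatives; open triangles mark libraries at 0, with their number. Calmodulin transcripts were at the top, and NFATC2, NFATC1 and NFATC4 lay far below NFATC3 (10.9 FPKM) and NFAT5.

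CALM2 and CALM3 encode the same protein from different bases. CALM2 lies at chr2:47160082-47176601 on the minus strand and CALM3 at chr19:46601074-46610793 on the plus strand (GRCh38, GENCODE release 29). Their coding sequences of 450 bases, 149 residues, translated to the same protein, yet they differed at 82 bases, 79 of them at the third codon position, an identity of 81.8%. The longest run of bases shared between the transcripts compared was 17. Coding bases 61 to 150, which open with the codons of the first calcium-binding loop, are shown because they bear on whether a read can be placed on 1 of the genes. Capitals mark the 17 of 90 positions where CALM2 and CALM3 differ.
CALM2: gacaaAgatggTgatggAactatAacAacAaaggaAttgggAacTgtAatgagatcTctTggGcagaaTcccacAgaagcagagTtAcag
CALM3: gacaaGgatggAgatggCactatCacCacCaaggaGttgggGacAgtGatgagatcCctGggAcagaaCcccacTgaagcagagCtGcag

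GENCODE also lists 4 processed pseudogenes of CALM2, copies of the spliced messenger RNA, which had no row of their own and were not analysed here. The sources used here do not state how reads that match both a gene and such a copy were handled, and the values of CALM2 are uncertain to that extent. CALM2 shares exon bases with 1 gene on its own strand, AC073283.3. CALM3 shares them with PPP5D1 and another gene on the other strand, and the strand setting of the counting is not given.

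CALM2, the most abundant of the set, had 459.3, 436.9 and 425.5 CPM at 41C, against 506.8, 501.5 and 453.3 CPM at 37C. The groups overlapped, since the lowest 37C library lay under the highest 41C library. The means were 440.6 ± 17.2 CPM at 41C and 487.2 ± 29.5 CPM at 37C (SD, n = 3 each), a log2 change of -0.15 ± 0.05 (SE; 95% interval -0.25 to -0.04; edgeR adjusted p = 0.186). This was the smallest p of the set. Without 37C replicate 3, the library with the lowest value at 37C, CALM2 passed the threshold (log2 change -0.19, edgeR adjusted p = 0.00297), and 6.62% of all genes tested then did. Leaving out any of the other libraries did not make it pass, and its log2 change was negative in all 16 alternatives tried, with adjusted p from 0.00297 to 0.627. The change was smallest with the gene length correction (log2 change -0.0935, edgeR adjusted p = 0.627). In bulk RNA, fewer cells with a transcript and less of it per cell cannot be told apart.

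CALM3 had 299.6, 324.4 and 344.7 CPM at 41C, against 312.5, 340.8 and 335.0 CPM at 37C. The 41C values lay on both sides of the 37C range, and the log2 change was -0.03 ± 0.05 (95% interval -0.14 to 0.08; edgeR adjusted p = 0.868). Its direction reversed without 41C replicate 1 (0.022).

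Counts summed over CALM2 and CALM3 came to 758.8, 761.4 and 770.2 CPM at 41C, against 819.3, 842.3 and 788.2 CPM at 37C. The groups of this sum did not overlap, which in either direction held in 20.0% of all single genes tested. The sum did not pass the threshold (log2 change -0.10 ± 0.04, 95% interval -0.18 to -0.01, edgeR adjusted p = 0.303). By FPKM, CALM2 made up 73.8, 71.2 and 69.4% of the sum of CALM2 and CALM3 at 41C, against 74.9, 73.0 and 71.3% at 37C. The groups overlapped, with means of 71.5% ± 2.21 at 41C and 73.1% ± 1.78 at 37C (SD, n = 3 each; exact permutation p = 0.4, two-sided). This test takes the libraries as unpaired. Taken by replicate number, each 41C share lay below the 37C share, and whether the numbers pair the libraries is not settled. No exact test of 3 libraries against 3 can go below 0.1. Adjusted over 5 of the shares compared, of CALM2, the calcineurin catalytic genes and NFATC3 among the NFATC genes of the set, no p was under 0.5. Shares among the CaM kinase II genes and the 5 NFAT genes were outside this adjustment.

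PPP3CA had the next highest level of the set after the calmodulin genes. PPP3CA, at chr4:101023409-101348278 on the minus strand, encodes the alpha catalytic subunit. It had 94.2, 86.4 and 91.6 CPM at 41C, against 87.1, 85.6 and 76.0 CPM at 37C. The groups overlapped, with 37C replicate 3 again the lowest. Its means were 90.7 ± 3.97 CPM at 41C and 82.9 ± 6.01 CPM at 37C (SD, n = 3 each), and it did not pass (log2 change 0.13 ± 0.06, 95% interval 0.00083 to 0.26, edgeR adjusted p = 0.361). Without 37C replicate 3 its log2 change was 0.073.

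PPP3CB, the beta catalytic subunit gene at chr10:73436428-73496024 on the minus strand, had 27.4, 30.2 and 29.8 CPM at 41C, against 29.3, 30.3 and 28.3 CPM at 37C. All but 1 of the 41C values lay inside the 37C range, and the log2 change was -0.01 ± 0.07 (95% interval -0.17 to 0.15; edgeR adjusted p = 0.979). An antisense gene, PPP3CB-AS1, shares exon bases with it. The sum of PPP3CA and PPP3CB averaged 119.9 ± 2.84 CPM at 41C and 112.2 ± 6.88 CPM at 37C (SD, n = 3 each). Its groups were nearly tied but did not overlap, with the lowest 41C library at 116.6 CPM and the highest 37C library at 116.4 CPM. Groups did not overlap, in either direction, in 20.0% of all single genes tested. The sum did not pass (log2 change 0.10 ± 0.05, edgeR adjusted p = 0.460), and its log2 change was 0.046 without 37C replicate 3.

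PPP3CC, the gamma catalytic gene, and the regulatory subunit gene PPP3R1 were outside the set. PPP3CC averaged 2.38 FPKM at 41C and 2.31 FPKM at 37C, and PPP3R1 averaged 23.8 FPKM at 41C and 23.4 FPKM at 37C, so that PPP3R1 was the highest calcineurin transcript per length. Neither passed (log2 change 0.06 ± 0.16 for PPP3CC and 0.04 ± 0.05 for PPP3R1, edgeR adjusted p = 0.911 and 0.807). Of the 3 catalytic transcripts, PPP3CA made up 68.3% ± 1.08 of the FPKM at 41C and 66.4% ± 1.52 at 37C (SD, n = 3 each; exact permutation p = 0.2). PPP3CB made up 22.99% ± 1.84 at 41C and 24.6% ± 0.722 at 37C (exact permutation p = 0.2), and PPP3CC 8.72% ± 1.44 at 41C and 8.96% ± 1.05 at 37C (exact permutation p = 0.8).

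CALM2 and PPP3CA, the 2 genes with an unadjusted p under 0.05, had log2 changes of opposite sign. Their FPKM ratio, CALM2 over PPP3CA, was 17.5, 18.2 and 16.7 at 41C, against 20.9, 21.1 and 21.5 at 37C. Each 41C library lay below each 37C library (exact permutation p = 0.1, the smallest possible; 0.48 adjusted over 6 ratios). The pair stands out partly because both genes were chosen here for their small p.

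**Figure D2:**
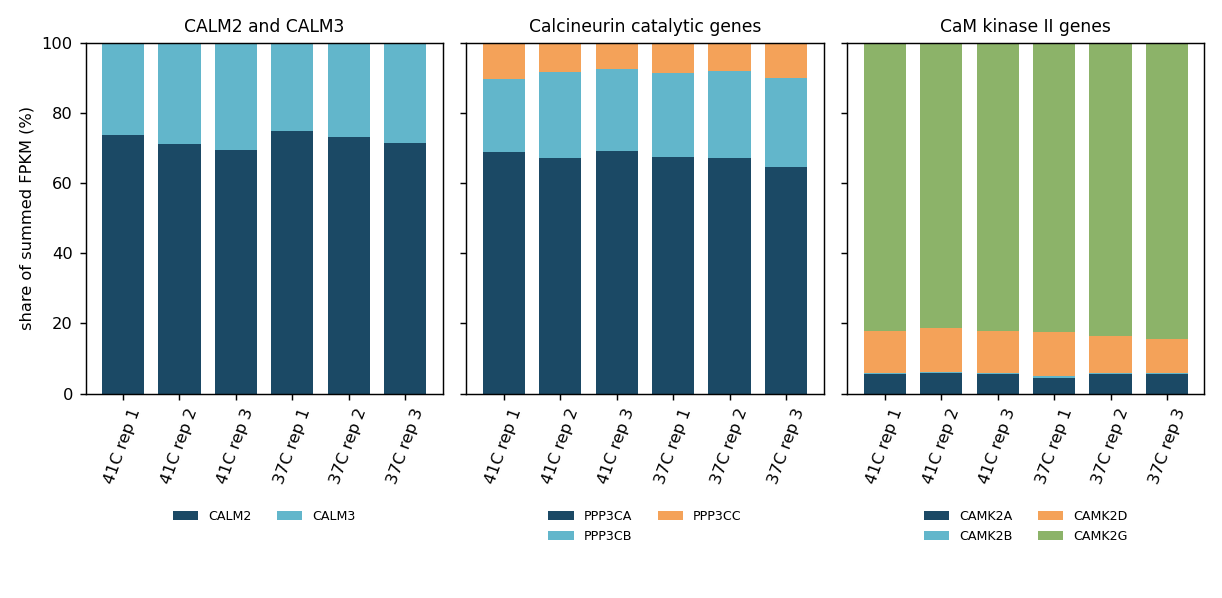
Share of the summed FPKM (percent, bars from 0 to 100) that each gene took among CALM2 and CALM3, the calcineurin catalytic genes and the CaM kinase II genes, 1 bar per library, 41C left of 37C. CALM2, PPP3CA and CAMK2G held the largest share of their group in all 6 libraries.

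Among the NFATC factors, which calcineurin activates, only NFATC3 could be tested. NFATC3, at chr16:68084751-68229259 on the plus strand, had 73.2, 76.7 and 70.6 CPM at 41C, against 69.1, 68.5 and 69.9 CPM at 37C. Each 41C library lay above each 37C library, which held in 1 of the 7 tested genes and, in either direction, in 20.0% of all genes tested. The means were 73.5 ± 3.06 CPM at 41C and 69.2 ± 0.674 CPM at 37C (SD, n = 3 each). NFATC3 did not pass (log2 change 0.09 ± 0.06, 95% interval -0.03 to 0.20, edgeR adjusted p = 0.521). It shares exon bases with 4 other genes, of which ESRP2 and 1 more lie on the other strand, so some reads may belong to either gene.

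NFATC1, at chr18:79395856-79529325 on the plus strand, had 1, 1 and 0 counts at 41C, against 0, 1 and 1 at 37C. NFATC2, at chr20:51386957-51562831 on the minus strand, had 3, 5 and 1 counts at 41C, against 0, 0 and 3 at 37C. The ratio of its summed counts per total, 41C over 37C, was 2.87 with an exact 95% interval of 0.717 to 16.5, and that of NFATC1 was 0.957 with an interval of 0.0694 to 13.2. These intervals cover counting error only, and a change of either gene was not detectable at this depth.

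NFATC4, outside the set, had 0, 0 and 1 counts at 41C, against 1, 1 and 0 at 37C. NFAT5, a relative that responds to osmotic stress and lacks the calcineurin-binding region, averaged 8.01 FPKM at 41C and 8.06 FPKM at 37C. Its log2 change was 0.01 ± 0.11 (edgeR adjusted p = 0.984), and the direction reversed with upper-quartile scaling and the length correction. NFATC3 made up 58.2% ± 0.274 of the FPKM of the 5 NFAT genes at 41C and 57.1% ± 4.30 at 37C, and NFAT5 made up 41.7% ± 0.278 at 41C and 42.8% ± 4.34 at 37C (SD, n = 3 each). Among the 3 NFATC genes of the set, NFATC3 held 99.8% ± 0.112 at 41C and 99.9% ± 0.108 at 37C (exact permutation p = 0.5).

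**Figure D3:**
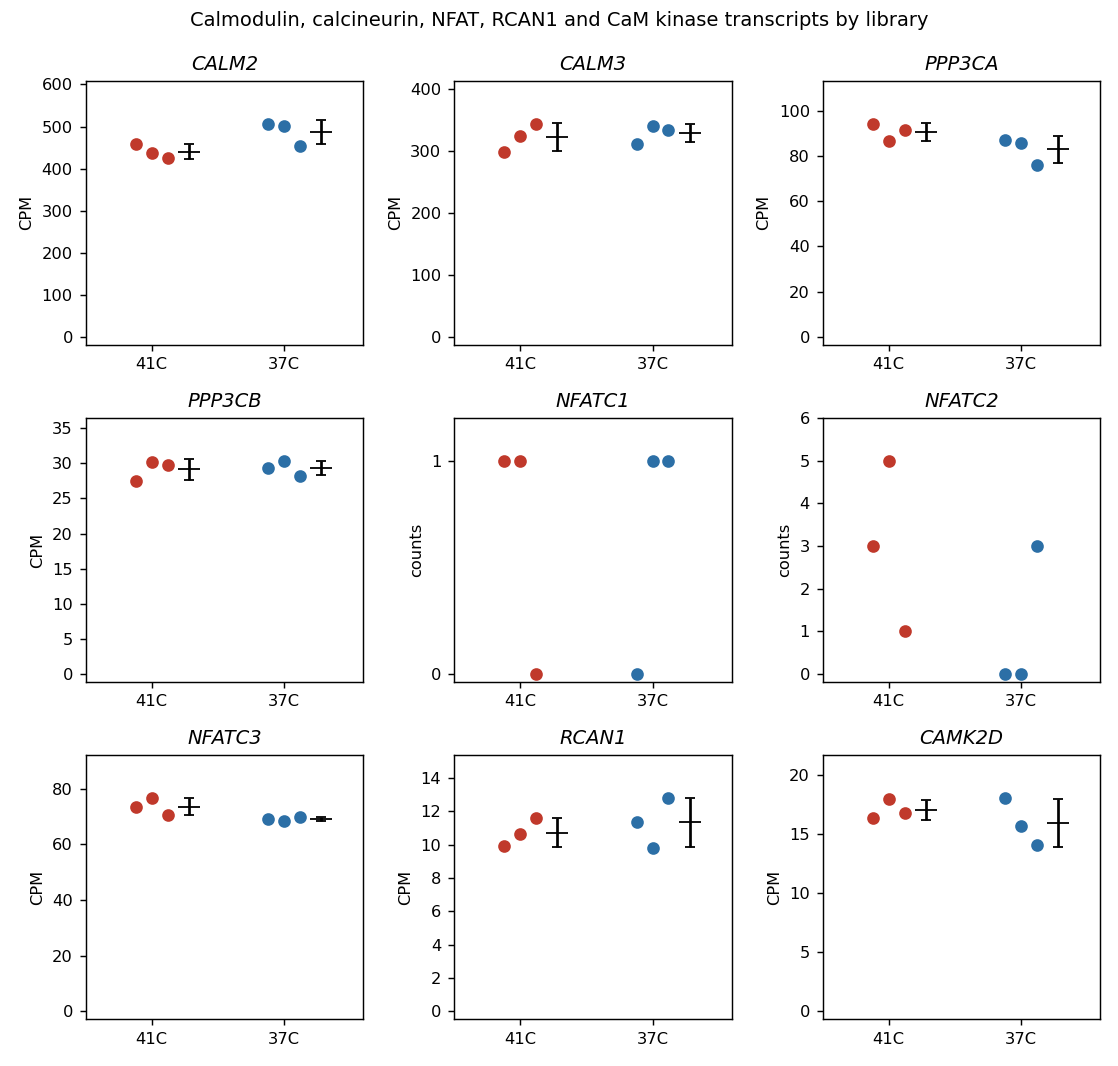
CPM (counts for NFATC1 and NFATC2) in each of the 3 libraries at 41C (red) and at 37C (blue), with the mean and SD beside the points for CPM; each axis starts at 0. The groups overlapped in 8 of the 9 panels; in NFATC3 the 41C libraries lay at 70.6 to 76.7 CPM and the 37C libraries at 68.5 to 69.9 CPM.

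RCAN1, the calcineurin target, lies at chr21:34513142-34615142 on the minus strand. GENCODE gives its transcripts 13 distinct starts, and the deposited table sums them into 1 row. A distal start is known to give a constitutive form of the transcript, and an internal start is known for its induction through NFAT. RefSeq promoters (GRCh38.p14; 250 bases before to 50 after a start) are shown for the most upstream start and for the internal start with the most matches, because the gene is the pathway's target. Capitals mark the 5-base core that NFAT is known to bind, GGAAA, or its reverse complement TTTCC, counted on both strands.
RCAN1 distal start, chr21:34615064-34615363, minus strand: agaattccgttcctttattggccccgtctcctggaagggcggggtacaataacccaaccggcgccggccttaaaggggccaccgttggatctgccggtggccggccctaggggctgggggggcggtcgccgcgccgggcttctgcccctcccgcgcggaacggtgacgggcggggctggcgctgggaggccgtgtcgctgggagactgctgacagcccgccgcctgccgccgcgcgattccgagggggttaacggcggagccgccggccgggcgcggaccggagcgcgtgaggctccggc
RCAN1 internal start, chr21:34526773-34527072, minus strand: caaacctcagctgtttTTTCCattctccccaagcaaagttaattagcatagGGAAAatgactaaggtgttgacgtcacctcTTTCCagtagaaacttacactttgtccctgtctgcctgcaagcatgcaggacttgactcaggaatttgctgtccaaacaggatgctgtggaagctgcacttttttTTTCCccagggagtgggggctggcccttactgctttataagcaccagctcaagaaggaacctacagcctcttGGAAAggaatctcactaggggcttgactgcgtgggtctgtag

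The internal window held 5 matches, 2 of GGAAA and 3 of TTTCC, and the distal window held 0. At least 1 match was present in 61.2% and at least 5 in 0.740% of 35116 promoters of this length. These shares are over single promoters not matched for base composition, whereas the internal window was picked for the most matches in RCAN1. The 0.740% thus overstates how rare such a pick is. The other 4 RCAN1 windows held 0, 0, 1 and 1 matches. Of the set, 6 genes had a promoter in the RefSeq table: CALM3, NFATC3 and CAMK2D had 0 matches in each of their windows, NFATC1 had 1 in each of 2, and NFATC2 had 3 and 0. A match in these letters is a description and not evidence of binding.

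RCAN1 had 9.93, 10.6 and 11.6 CPM at 41C, against 11.4, 9.81 and 12.8 CPM at 37C. The 3 values at 41C all lay inside the range at 37C. The means were 10.7 ± 0.855 CPM at 41C and 11.3 ± 1.5 CPM at 37C (SD, n = 3 each). The log2 change was -0.08 ± 0.12 (edgeR adjusted p = 0.827), and its 95% interval ran from 0.795-fold to 1.13-fold. Its sign turned positive without 37C replicate 3 (0.02). A shift between the 2 kinds of start could not be seen in the summed row.

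CAMK2D, at chr4:113451032-113761927 on the minus strand, encodes the delta chain of CaM kinase II. It had 16.4, 18.0 and 16.7 CPM at 41C, against 18.0, 15.6 and 14.0 CPM at 37C. The groups overlapped, and the 37C libraries spread wider than the 41C libraries. The log2 change was 0.10 ± 0.10 (95% interval -0.12 to 0.31; edgeR adjusted p = 0.735). Leaving out 37C replicate 3 brought it to 0.017, leaving out 41C replicate 2 to 0.058 and leaving out 37C replicate 1 to 0.19.

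CAMK2G, the gamma chain gene outside the set, was the main CaM kinase II transcript, with 81.9% ± 0.644 of the FPKM of the 4 genes at 41C and 83.4% ± 1.01 at 37C. CAMK2D held 12.2% ± 0.536 at 41C and 11.02% ± 1.54 at 37C, and CAMK2A held 5.65% ± 0.0984 at 41C and 5.28% ± 0.661 at 37C (SD, n = 3 each). Each 41C share of CAMK2G lay below each 37C share (exact permutation p = 0.1, the smallest possible, unadjusted). The shares of CAMK2D and CAMK2A overlapped between the groups. CAMK2G averaged 87.2 ± 1.23 CPM at 41C and 92.0 ± 2.59 CPM at 37C, with groups that did not overlap, and did not pass (log2 change -0.08 ± 0.05, edgeR adjusted p = 0.552). CAMKK2, a kinase that activates other CaM kinases, did not pass (57.2 ± 0.606 CPM at 41C and 52.3 ± 2.12 CPM at 37C, log2 change 0.13 ± 0.06, edgeR adjusted p = 0.342).

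Other genes of the pathway were taken from 10 lists of regulators, relatives and effectors. Of 74 listed genes 66 had a row and 47 were tested. By edgeR 0 passed in either direction, as in limma-voom, against 1.09% of all genes tested by edgeR. An unadjusted edgeR p under 0.05 was found in 6, a share near the 13.7% of all genes. DESeq2 called none either, but several genes, CAMKK2, GSK3A, CRTC3, MEF2D, CXCL8 and PTGS2 included, had no adjusted p there and could not pass. The median log2 change of the 47 was 0.03, against 0.0023 over all genes tested, and 33 of the 47 were positive, against 6133 of the 12056. The groups did not overlap in 9 of the 47, against 2414 of the 12056, or 20.0%.

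The kinases that phosphorylate NFAT and so oppose calcineurin had 6 tested genes, with log2 changes of -0.01 to 0.13. Of these 0 passed the threshold, against 1.09% of all genes tested. GSK3B averaged 160.5 ± 1.61 CPM at 41C and 148.0 ± 1.3 CPM at 37C (SD, n = 3 each), and GSK3A 42.5 ± 3.08 CPM at 41C and 38.7 ± 1.63 CPM at 37C. The groups overlapped in neither, and groups did not overlap, in either direction, in 20.0% of all genes tested. Neither GSK3B nor GSK3A passed (log2 change 0.12 ± 0.04 and 0.13 ± 0.07, edgeR adjusted p = 0.254 and 0.431). Among 5 tested calcineurin inhibitors, anchors and immunophilins, PPIA, the cyclophilin through which ciclosporin blocks calcineurin, gave a log2 change of -0.10 ± 0.05, and CABIN1, a calcineurin-binding inhibitor, one of 0.09 ± 0.05 (edgeR adjusted p = 0.380 and 0.426). The scaffold genes HOMER2 and HOMER3, whose products compete with calcineurin for NFAT, gave changes of 0.09 ± 0.08 and 0.06 ± 0.05 on the log2 scale, each with an edgeR adjusted p of 0.680.

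Of 9 tested transcription factor genes that calcineurin or CaM kinases also regulate, 7 were positive and 0 passed, against 6133 positive of 12056 and 1.09% passing over all genes tested. An unadjusted edgeR p under 0.05 was found in 3 of the 9, against 13.7% of all genes tested. The groups did not overlap in 3 of the 9, against 20.0% of all genes tested. CRTC3, a CREB coactivator, and MEF2D had the smallest p-values. CRTC3 averaged 34.8 ± 1.68 CPM at 41C and 30.9 ± 0.813 CPM at 37C, and MEF2D 57.7 ± 2.14 CPM at 41C and 52.5 ± 2.62 CPM at 37C (SD, n = 3 each). Their groups did not overlap, and their log2 changes were 0.17 ± 0.07 and 0.14 ± 0.06 (edgeR adjusted p = 0.292 and 0.341).

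Of 12 genes that NFAT is known to induce, mostly in lymphocytes, 9 had a row and 3 were tested. Of the 3, 0 passed the threshold, against 1.09% of all genes tested. The chemokine gene CXCL8 averaged 10.8 ± 0.676 CPM at 41C and 13.4 ± 2.53 CPM at 37C (SD, n = 3 each), with a log2 change of -0.31 ± 0.13 (edgeR adjusted p = 0.308). Its groups overlapped. Without 37C replicate 3 it passed (log2 change -0.45, edgeR adjusted p = 0.00835), and 6.62% of all genes tested then did, against 1.09% with all libraries. PTGS2, the inducible cyclooxygenase gene, averaged 2.98 ± 0.278 CPM at 41C and 3.57 ± 0.216 CPM at 37C, with groups that did not overlap and a log2 change of -0.26 ± 0.18 (edgeR adjusted p = 0.570). CSF2 had 0.518 ± 0.232 CPM at 41C and 0.470 ± 0.225 CPM at 37C.

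**Figure D4:**
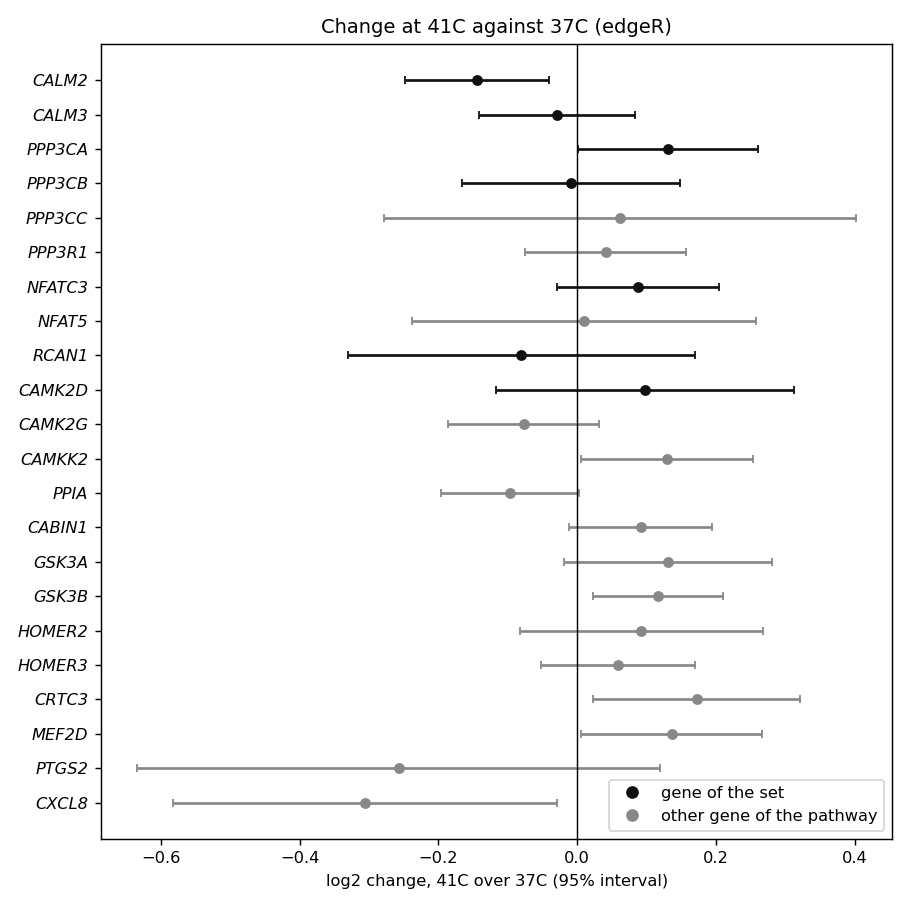
Log2 change at 41C over 37C from edgeR with its 95% interval, for the 7 tested genes of the set (black) and other pathway genes (grey); the vertical line marks no change. The points of the set ran from -0.15 in CALM2 to 0.13 in PPP3CA, and none passed after adjustment over all genes.

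The tested genes of the set did not share 1 pattern over the libraries. On the log2 CPM scale the Pearson correlation between 2 of them over 6 libraries ran from -0.626, for PPP3CA with RCAN1, to 0.641, for CALM3 with PPP3CB. These points share 2 temperatures and the library scaling. CALM2, with the smallest p of the set, had the highest correlations with BUB1, a mitotic checkpoint kinase gene, PRTFDC1 and SPTLC1 among all 12056 genes tested, with r of 0.995, 0.993 and 0.992 over the 6 libraries. These were picked as the highest of that many values over 6 points, and are a description only. None of these 3 passed the threshold (edgeR adjusted p = 0.349, 0.425 and 0.563).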

How the data were processed

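Per the labels' protocols, RNA came from a mirVana extraction and poly(A) libraries from TruSeq Stranded mRNA reagents. The submitters' processing notes list Trimmomatic 0.36, HISAT2 and GRCh38.p13, with read counter, annotation and strandedness not given in the sources used here. The authors deposited raw counts for 15379 gene symbols. The deposited FPKM were made by the authors from the same counts (count per length and total, within 2.8e-05%), and served for levels per length, shares and alternatives.

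Counts were tested at 41C against 37C with edgeR 4.0.16 in R 4.3.3 (filterByExpr, leaving 12056 genes; TMM factors; robust quasi-likelihood fit; two-sided) and adjusted by Benjamini-Hochberg over all genes tested, at 0.05. CPM use the TMM factors. Shares were compared by an exact permutation test of the 6 libraries, which cannot go below 0.1. The calmodulin sum and share are of CALM2 and CALM3, a choice made after values were seen, and some listed items are not reported here. Members, lists and tests were chosen with earlier results of these data known. The named genes were the set, the listed calmodulin, calcineurin and NFAT genes, the 2 smallest p of each list where none passed, and the 3 genes most like the member with the smallest p; CSF2, CAMK2A and the relatives drawn in figures were added after their values were seen. Alternatives were DESeq2 1.42.0, limma-voom (limma 3.58.1), 2 other scalings, 2 other filters, a replicate block, each library left out, log2(FPKM + 1), log2(FPKM + 0.1) and a gene length correction (spline with 4 degrees of freedom).

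The edgeR procedure was tested on simulated data. Draws without any change gave no calls at the spread trended over level and a few at the gene-wise spread, and the limit set for such calls was raised after the first draw had exceeded it.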

Additional observations from a re-analysis of the deposited data

How the results depend on the processing

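The 7 tested genes of the set gave 0 calls in all alternatives but 2: 1, CALM2, with the replicate block and without 37C replicate 3, for a range of 0 to 1 over the libraries left out. The other pathway genes gave 0 to 1, the 1 being CXCL8 without 37C replicate 3. In DESeq2, genes left without an adjusted p were counted as not called. Over all genes the 131 calls became 217 with DESeq2, 284 with no filter, 438 with the replicate block, 11 with log2(FPKM + 1) and 40 with log2(FPKM + 0.1), and 5 to 805 with 1 library left out, the extremes coming from leaving out 41C replicate 2 and 37C replicate 3. Under upper-quartile factors the calls split into 57 higher and 53 lower, against 99 higher and 32 lower with TMM. CALM2 came to -0.14 on the log2 scale with the replicate block, at an edgeR adjusted p of 0.0203. Between samples of the same number, deviations from the group means correlated at 0.082, -0.0194 and 0.0774. Of the 6 samples, 4 correlated best with their own number. These values do not settle whether the replicate numbers pair the samples.

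Some directions reversed. CALML4, a calmodulin-like gene, was 0.0045, against -0.016, -0.0084 and -0.010 with upper-quartile scaling, log2(FPKM + 1) and log2(FPKM + 0.1). NFAT5 was -0.0088 with upper-quartile scaling and -0.025 with the length correction. With 1 library left out, CALM3 ran from -0.079 to 0.022, PPP3CB from -0.035 to 0.034, RCAN1 from -0.18 to 0.017, CALML4 from -0.063 to 0.086, PPP3CC from -0.10 to 0.16 and NFAT5 from -0.12 to 0.080. The causes were not tested. At 0 to 5 counts per library, a change of NFATC1 or NFATC2 was not detectable at this depth.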

Other observations

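Enzymes that calmodulin activates were listed too. Of 16 listed, 14 had a row and 10 were tested. By edgeR and limma-voom 0 passed, against 1.09% of all genes tested by edgeR. In edgeR 0 had an unadjusted p under 0.05, against 13.7% of all genes tested. DESeq2 called none of them, but it gave no adjusted p for NOS3. ADCY3, an adenylate cyclase gene, averaged 95.9 ± 2.76 CPM at 41C and 89.7 ± 6.73 CPM at 37C (SD, n = 3 each), with a log2 change of 0.10 ± 0.06 (edgeR adjusted p = 0.500). NOS3, a nitric oxide synthase gene, averaged 1.19 ± 0.106 CPM at 41C and 0.959 ± 0.136 CPM at 37C (log2 change 0.31 ± 0.28, edgeR adjusted p = 0.687). The calmodulin-like genes CALML5 and CALML6 had 1 and 5 counts over the libraries at 41C and 1 and 3 at 37C.

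At 37C, replicate 3 was the lowest library for several of these transcripts. NFAT5 had 1186 counts there, against 1617 and 1581 in 37C replicates 1 and 2, and 1562, 1586 and 1406 in the 41C libraries. CALM2, PPP3CA and CAMK2D were also lowest of the 37C libraries in replicate 3, while RCAN1 was highest there at 12.8 CPM. These values were picked after they were seen.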
